A study of Homo sapiens with 15 samples.

Results

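The 31 genes described here encode subunits of the BAF chromatin remodelling complex and of its 2 sister assemblies, PBAF and ncBAF, taken by name from a list of known subunits, out of 57820 gene identifiers counted by RNA-seq. All 31 were found in the count table, with GLTSCR1 and GLTSCR1L listed in the annotation as BICRA and BICRAL. The cells were A673, a human Ewing sarcoma line, in a knockdown and rescue (KD/rescue) design with 5 conditions and 3 libraries in each. iLuc cells carried an shRNA against luciferase with an empty vector and kept their endogenous EWS/FLI (endo-EF). iEF cells carried the EWS/FLI shRNA with an empty vector. WT-EF, Δ22 and DAF cells carried the same EWS/FLI shRNA together with a cDNA for wild-type EWS/FLI, for a form without the EWS domain (Δ22), or for a form (DAF) in which tyrosines of the EWS domain are replaced by alanine. The cDNAs were tagged with 3X-FLAG and expressed from a retroviral vector. All conditions thus come from 1 line, given shRNA on day 1 and cDNA or empty vector on day 5, then held in puromycin (2 μg/mL) and hygromycin B (400 μg/mL) until day 16.

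BAF complexes use the energy of ATP to slide or evict nucleosomes and so open DNA at enhancers and promoters. Each complex is built on a single ATPase, SMARCA4 or SMARCA2, and a core that all forms share in large part. Canonical BAF adds ARID1, DPF and SS18 subunits, and PBAF adds ARID2, PBRM1, BRD7 and PHF10. BRD9 with GLTSCR1 or GLTSCR1L is added in ncBAF, where SS18 is also found. Many subunits come as sets of paralogs that take the same place in the complex. EWS/FLI, the fusion protein of Ewing sarcoma, joins the low-complexity EWS domain to the ETS DNA-binding domain of FLI1. It is known to bind runs of GGAA repeats and to bring BAF complexes to them through tyrosines of the EWS domain. The values here are transcript levels of the subunits themselves. They say nothing of the amount of protein, of how the complex is assembled or of where it binds.

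Since EWS/FLI binds GGAA runs, the surroundings of the subunit genes were searched for them in the GRCh37 genome. A run of at least 4 GGAA units, on either strand, lay within 5 kb of the start of the canonical transcript in 3 of 31 members (9.68%) and in 646 of 19110 protein-coding genes (3.38%). Within 100 kb the shares were 54.8% of members and 54.7% of protein-coding genes. The runs near BCL7A, DPF1 and DPF3 are shown because they are the only ones so close to a member's start. They are written 5′ to 3′ on the strand of the gene, with stretches of consecutive GGAA units (TTCC where the run is on the other strand) in capitals.
BCL7A: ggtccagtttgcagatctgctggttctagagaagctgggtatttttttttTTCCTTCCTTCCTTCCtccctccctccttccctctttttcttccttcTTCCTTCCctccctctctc
DPF1: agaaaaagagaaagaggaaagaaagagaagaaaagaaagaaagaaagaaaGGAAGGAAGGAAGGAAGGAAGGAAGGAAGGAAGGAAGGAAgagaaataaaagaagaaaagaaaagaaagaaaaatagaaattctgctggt
DPF3: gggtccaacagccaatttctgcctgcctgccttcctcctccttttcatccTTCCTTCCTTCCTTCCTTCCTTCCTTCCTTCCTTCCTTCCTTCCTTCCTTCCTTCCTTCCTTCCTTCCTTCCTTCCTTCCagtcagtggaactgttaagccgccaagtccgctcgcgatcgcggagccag

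The BCL7A window lies at chr12:122456882-122456997 on the plus strand, and its run of 4 units is 2851 bp upstream of the canonical start, outside the exons of BCL7A. The DPF1 window lies at chr19:38717585-38717724 on the minus strand, and its run of 10 units is 2792 bp upstream of the canonical start but inside the DPF1 gene record, which has earlier starts. The DPF3 window lies at chr14:73359601-73359780 on the minus strand, and its run of 20 units is 1119 bp inside the gene, in no exon. Within 100 kb of the start, 17 of 31 members had a run. BCL11B, SMARCC1 and ARID2 were among the members without one, as were SMARCE1 and PBRM1, which were called in no comparison below. The runs are matches of letters, and binding of EWS/FLI at them was not measured.

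In the 300-base promoter sequences of RefSeq (GRCh38.p14, 250 bases before to 50 after a start), 26 of the 31 members were matched, with 47 promoters. The doublet GGAAGGAA, read on both strands, was present in 2 of these 47 promoters (4.26%), those of BRD7 and SMARCA2, and in 3.67% of all 35116 promoters. The ETS core CCGGAA was present in 9 of 47 (19.1%) and in 17.2% of all promoters. The single BCL11B promoter held neither motif. ACTB, ACTL6A, ARID2, SMARCC1 and SMARCC2 were the members not matched, so their promoters were not searched.

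Depth was even, at 28659475 to 41859880 counts in a library (median 32943231). Replicates differed by more than counting noise (chi-square per gene 12.9 to 83.2 in 15 pairs of libraries). The labels do not say whether replicates were separate infections. The study's scheme draws shRNA transduction, rescue and harvest as the design of a single replicate. The p-values measure the spread between these libraries. The test took the 28793 genes with a mean count of 1 or more, among them 30 members, while ACTL6B fell below that level. CPM is the usual read count relative to library size, here with sizes scaled by TMM factors. FLI1, whose 3′ exons the fusion carries, stood at 49.4 ± 2.62 CPM (mean ± SD, n = 3) in iLuc, 14.6 ± 1.44 in iEF, 17.6 ± 1.39 in WT-EF, 31.2 ± 6.08 in Δ22 and 24.3 ± 2.64 in DAF. It was lower in iEF than in iLuc by edgeR (log2 fold change iLuc over iEF 1.77, SE 0.10, adjusted p = 7.94e-09), whereas the increase from iEF to WT-EF was 0.27 (SE 0.10, adjusted p = 0.0538). The shRNA targets the 3′UTR of the EWS/FLI transcript, and whether the cDNAs carry that region is not given in the sources used here. FLI1 counts of endogenous and of cDNA transcripts may therefore be unlike measures of EWS/FLI. Of the Ewing sarcoma markers, NKX2-2, NR0B1, STEAP1, PRKCB and LIPI were all higher in iLuc than in iEF, while CD99 had 0 to 3 counts in every library. CD99 lies in a region shared by the X and Y chromosomes, and its reads may have been dropped as mapping to both. Its low counts are therefore not read as absence of expression. Leukocyte, epithelial and endothelial markers (PTPRC, CD3E, EPCAM, CDH1, CDH5 and VWF) stayed at or below 1.01 CPM in every library, though EPCAM passed the test (0.823 ± 0.172 CPM in iLuc against 0.120 ± 0.0358 in iEF). In bulk RNA a lower share of expressing cells and less RNA per cell cannot be told apart.

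The scaling between libraries bears on the small changes below. TMM factors were 1.04 to 1.09 in iLuc and 1.05 to 1.11 in WT-EF, but 0.894 to 0.977 in iEF. When library totals alone were used, the median log2 fold change of the 11781 genes averaging 100 or more counts rose by 0.21 for iLuc over iEF, by 0.23 for WT-EF over iEF and by 0.15 for WT-EF over DAF. Changes of about that size therefore depend on the scaling, and the counts over all members are given with both.

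**Figure D1:**
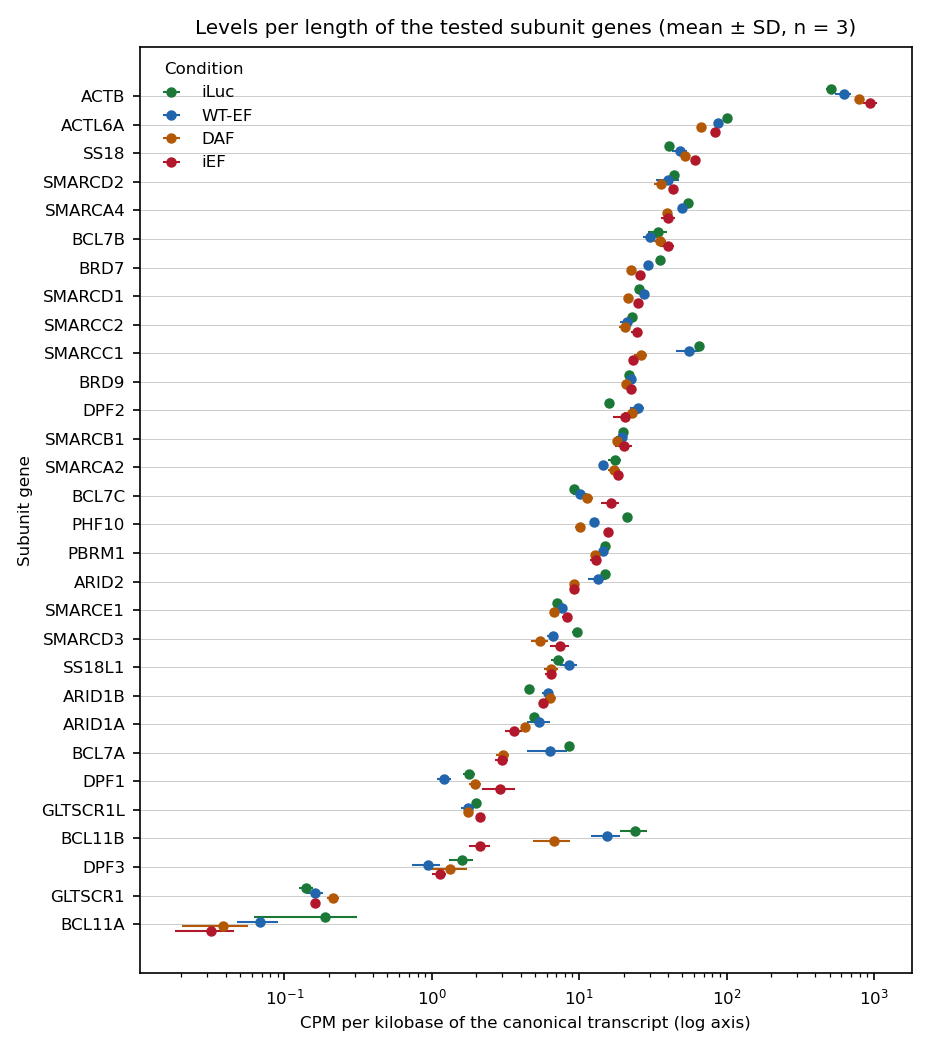
Mean CPM per kilobase of the canonical transcript (log axis, bars ± SD, n = 3) for the 30 tested members in iLuc, WT-EF, DAF and iEF, with Δ22 not drawn. ACTB stands highest in all 4 conditions and BCL11A, GLTSCR1 and DPF3 lowest in iEF, while BCL11B shows the widest gap between iLuc and iEF among members above 1 CPM per kilobase.

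Per transcript length, members spanned a wide range in iEF. ACTB, the actin that also sits in the complex as a monomer, had 942 ± 105 CPM per kb, followed by its actin-like partner ACTL6A at 83.4 ± 5.20, SS18 at 60.9 ± 0.888, SMARCD2 at 43.1 ± 2.31 and the ATPase SMARCA4 at 40.2 ± 4.09. The last 2 differed by less than their spread. SMARCA2 was at 18.3 ± 0.230. At the low end were DPF3 at 1.13 ± 0.128, GLTSCR1 at 0.161 ± 0.00869 and BCL11A at 0.0319 ± 0.0138 CPM per kb. ACTL6B, the neuronal paralog of ACTL6A, had between 0 and 3 counts in each library, so no fold change is given for it.

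Subunits differed in both directions between cells with and without EWS/FLI. With endo-EF (iLuc against iEF), 11 of 30 tested members were higher and 6 lower at an adjusted p under 0.05, where 19.5% of all tested genes were higher and 22.1% lower. With library totals alone, the split was 15 higher and 3 lower. With WT-EF against iEF, 8 were higher and 7 lower (12.9% and 17.0% of all tested genes), or 15 and 3 with library totals alone. The members are well expressed, and among the 11781 genes averaging 100 or more counts, 64.4% passed in iLuc against iEF and 50.2% in WT-EF against iEF, beside 16 and 15 of the 28 members in that class. Their median absolute log2 fold change in this class was 0.37 and 0.31, against 0.46 and 0.33 for all such genes. The share of subunits called was near or below that of other well expressed genes. All comparisons with iEF use the same 3 iEF libraries.

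**Figure D2:**
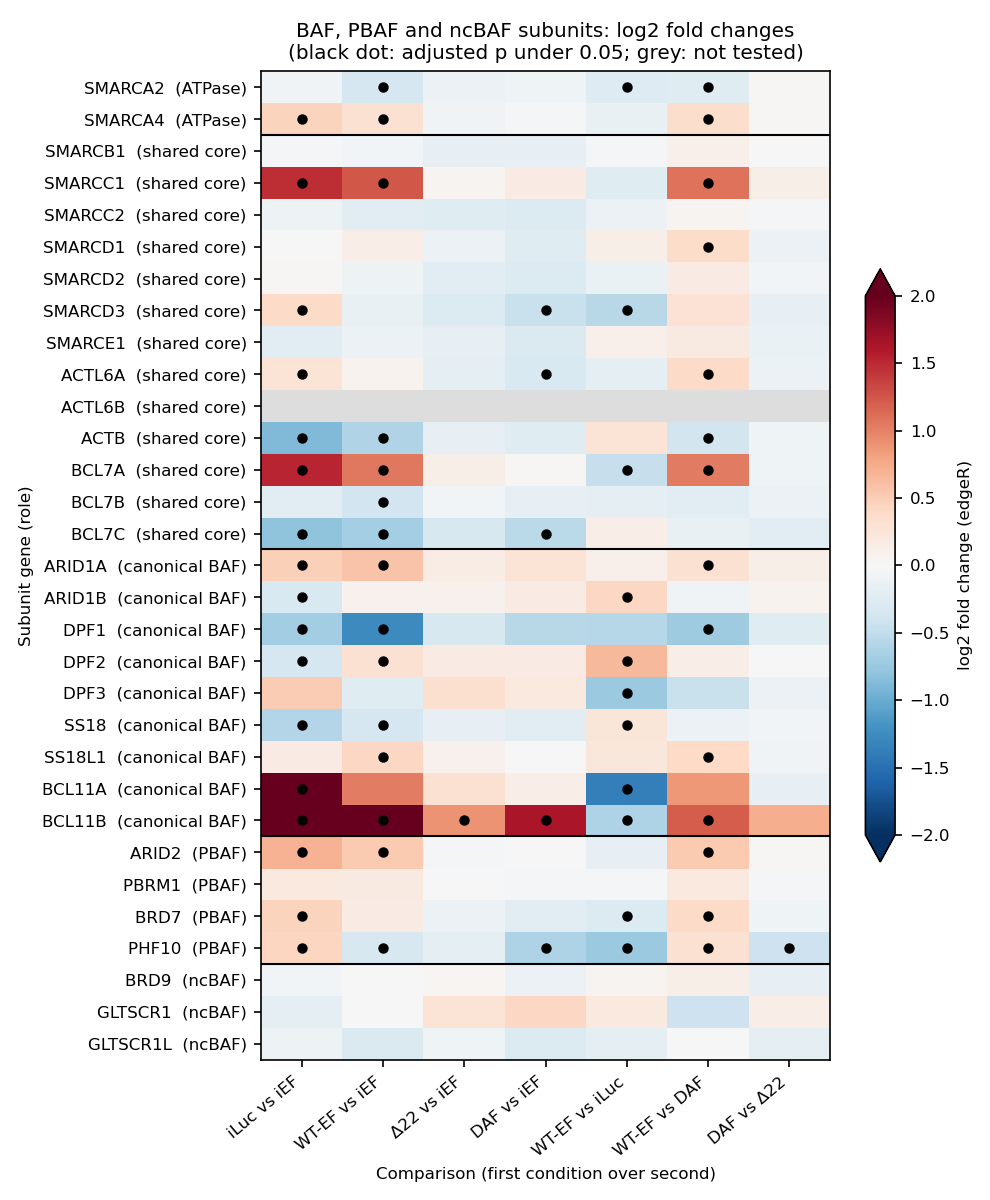
Log2 fold change (edgeR, colour scale cut at 2 in either direction) of each of 31 members in the 7 comparisons, ordered by role, with black dots for an adjusted p under 0.05 and grey for ACTL6B, which was not tested. BCL11B has a dot in every comparison but DAF against Δ22, whereas SMARCB1, SMARCC2, SMARCD2, SMARCE1, PBRM1 and the 3 ncBAF members have none.

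Among the ATPases, SMARCA4 (BRG1) was higher with EWS/FLI. Its level was 309, 316 and 296 CPM in the 3 iLuc libraries, 264, 274 and 297 in WT-EF, and 229, 200 and 245 in iEF. All libraries of iLuc and WT-EF lay above all of iEF. The log2 fold change over iEF was 0.45 for iLuc (SE 0.08, adjusted p = 0.000483) and 0.31 for WT-EF (SE 0.08, adjusted p = 0.0119). Δ22 and DAF gave −0.07 and −0.04, and WT-EF exceeded DAF directly by 0.35 (SE 0.08, adjusted p = 0.00607). The WT-EF call over iEF was lost without replicate 1 of all conditions (adjusted p = 0.0623) or without replicate 2 (adjusted p = 0.128), and the call over DAF without replicate 1 (adjusted p = 0.0939). SMARCA2 (BRM), the alternative ATPase, had 102, 110 and 89.5 CPM in iLuc, 107, 104 and 105 in iEF and 81.2, 84.2 and 85.2 in WT-EF. It fell by 0.34 on the log2 scale in WT-EF (SE 0.08, adjusted p = 0.00640), a call that was lost with library totals alone (log2 fold change −0.10, adjusted p = 0.410). The log2 ratio of SMARCA2 to SMARCA4 counts does not depend on the scaling. It was −1.08 ± 0.14 (SD, n = 3) in iEF, −1.14 ± 0.07 in Δ22 and −1.14 ± 0.07 in DAF, but −1.61 ± 0.10 in iLuc and −1.73 ± 0.06 in WT-EF. The iLuc and WT-EF libraries did not overlap with the iEF libraries in this ratio, and the exact permutation p of 0.1 is the smallest that 3 against 3 can give.

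In the shared core, SMARCC1 and BCL7A rose by more than 2-fold with both endo-EF and WT-EF. SMARCC1 (BAF155; chromosome 3, 47626759 to 47823596, minus strand), a scaffold around which the core assembles, stood at 413, 394 and 430 CPM in iLuc, 288, 352 and 416 in WT-EF and 146, 149 and 147 in iEF. Δ22 libraries had 142, 149 and 168 and DAF libraries 146, 172 and 178, so both overlapped with iEF and lay far below WT-EF. SMARCC1 rose 2.79-fold with endo-EF (log2 fold change 1.48, SE 0.10, adjusted p = 2.12e-08) and 2.36-fold with WT-EF (1.24, SE 0.09, adjusted p = 3.99e-07). With Δ22 the log2 fold change was 0.05 (95% interval −0.15 to 0.25), with DAF 0.16 (−0.04 to 0.36), and WT-EF exceeded DAF by 1.08 (SE 0.09, adjusted p = 3.25e-06). Its paralog SMARCC2 (BAF170) was called in no comparison, at 116 ± 4.67 CPM in iLuc and 125 ± 10.9 in iEF. The log2 ratio of SMARCC2 to SMARCC1 was accordingly −0.24 ± 0.13 in iEF, −0.53 ± 0.21 in Δ22, −0.67 ± 0.26 in DAF, −1.70 ± 0.29 in WT-EF and −1.83 ± 0.10 in iLuc. DAF libraries did not overlap with iEF in this ratio (difference −0.43, exact permutation p = 0.1), but the gap was narrow. The nearest libraries were DAF replicate 1 at −0.37 and iEF replicate 3 at −0.36. The DAF mean lay nearer to iEF than to WT-EF.

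The BCL7 family, small subunits found in all 3 assemblies, split by paralog. BCL7A (chromosome 12, 122457328 to 122499950, plus strand) had 30.0, 33.3 and 32.1 CPM in iLuc, 17.8, 21.5 and 31.5 in WT-EF and 10.6, 10.4 and 12.4 in iEF. The WT-EF libraries were spread widely and reached the iLuc level in 1 of 3. BCL7A rose 2.86-fold with endo-EF (log2 fold change 1.52, SE 0.14, adjusted p = 5.80e-07) and 2.08-fold with WT-EF (1.06, SE 0.14, adjusted p = 3.80e-05). With DAF, at 10.1, 12.4 and 11.4 CPM, the log2 fold change over iEF was 0.02 (95% interval −0.28 to 0.31). WT-EF exceeded DAF by 1.04 (SE 0.14, adjusted p = 6.61e-05). A gene on the opposite strand overlaps 9.78% of the BCL7A exon length. BCL7C moved the other way, with 7.55, 8.08 and 8.24 CPM in iLuc, 9.44, 9.12 and 7.59 in WT-EF and 15.2, 11.8 and 15.1 in iEF, and no overlap with iEF in either. It fell by 0.81 on the log2 scale with endo-EF (SE 0.14, adjusted p = 0.000243), by 0.68 with WT-EF (SE 0.14, adjusted p = 0.00155) and by 0.54 with DAF (SE 0.14, adjusted p = 0.0214). The DAF call was lost without any 1 of the 3 DAF libraries (adjusted p 0.0695 to 0.131) and without iEF replicate 1 (adjusted p = 0.0834) or 3 (adjusted p = 0.124). BCL7B fell by 0.39 with WT-EF (SE 0.09, adjusted p = 0.00392), a call lost with library totals alone (adjusted p = 0.168) and without the replicate block (adjusted p = 0.0556).

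ACTB, often used as a reference gene, fell with EWS/FLI. It stood at 1787, 1490 and 1842 CPM in iEF, 849, 926 and 1002 in iLuc and 1263, 1130 and 985 in WT-EF, with no overlap between iEF and either. The decrease was 0.88 on the log2 scale with endo-EF (SE 0.10, adjusted p = 7.23e-06) and 0.60 with WT-EF (SE 0.10, adjusted p = 0.000437). Δ22 (−0.16) and DAF (−0.24) did not pass the test. Most β-actin is cytoskeletal, so this level is not a measure of the complex. ACTL6A rose by 0.27 with endo-EF (adjusted p = 0.0176) but fell by 0.31 with DAF (adjusted p = 0.0252), and WT-EF exceeded DAF by 0.39 (SE 0.08, adjusted p = 0.00279). The DAF call was lost with library totals alone (adjusted p = 0.0624) and without any 1 DAF library (adjusted p 0.0796 to 0.132), and the endo-EF call without iLuc replicate 2 or 3 or iEF replicate 2 or 3 (adjusted p 0.0584 to 0.119).

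The remaining core members moved little. SMARCB1, the tumour suppressor lost in rhabdoid tumours, had 103 ± 3.34 CPM in iLuc, 105 ± 13.9 in iEF, 101 ± 8.54 in WT-EF, 93.3 ± 9.85 in Δ22 and 94.0 ± 5.39 in DAF, and for iLuc over iEF the 95% interval of its log2 fold change was −0.20 to 0.16. Exons of DERL3 on the opposite strand overlap 17.7% of its exon length. SMARCD2 and SMARCE1 were called in no comparison either. A gene on the same strand overlaps 18.9% of the SMARCE1 exon length, and reads in the shared part may not have been counted. Of the SMARCD paralogs, which link the complex to transcription factors, SMARCD1 differed only between WT-EF and DAF (88.9, 88.6 and 94.8 against 70.8, 70.0 and 70.1 CPM, log2 fold change 0.37, SE 0.07, adjusted p = 0.00176). SMARCD3 had 18.4 ± 1.31 CPM in iLuc against 14.1 ± 2.10 in iEF (log2 fold change 0.39, adjusted p = 0.0269) and 12.6 ± 1.11 in WT-EF, which was lower than iLuc by 0.55 (SE 0.13, adjusted p = 0.00922). It was also lower with DAF than in iEF (−0.44, adjusted p = 0.0459). All 3 SMARCD3 calls were lost without a single library of the groups compared, with an adjusted p of up to 0.146 for iLuc over iEF (without iEF replicate 3), 0.268 for DAF over iEF (without iEF replicate 2) and 0.0768 for WT-EF against iLuc (without WT-EF replicate 1). Genes on the other strand overlap 28.4% of the SMARCD3 exon length, and the strand setting of the counting is not given in the sources used here.

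**Figure D3:**
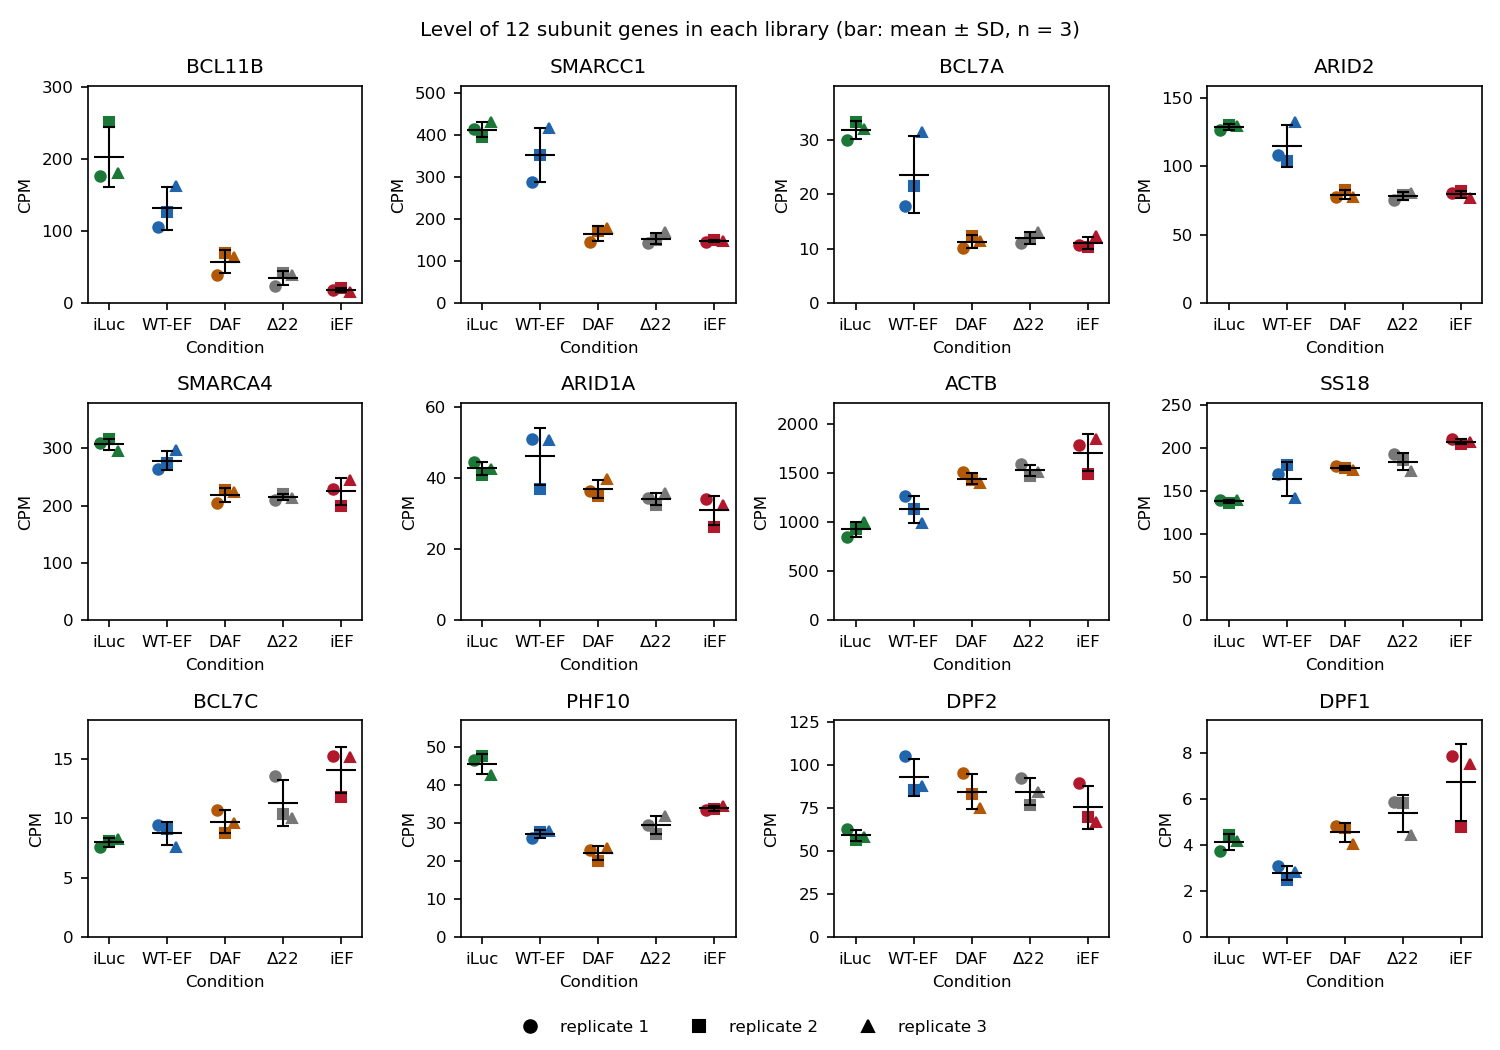
CPM of 12 members in each of the 15 libraries, with the mean ± SD of each condition (n = 3) and marker shapes for the replicate number; each panel starts at 0 and has its own scale. For SMARCC1, BCL7A and ARID2 the DAF and Δ22 libraries sit with iEF, for BCL11B DAF (39.3 to 69.2 CPM) sits between iEF (15 to 20.7) and WT-EF (105 to 163), and for PHF10 iLuc alone lies above iEF.

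Canonical BAF subunits included the largest change of all members. BCL11B (chromosome 14, 99635624 to 99738534, minus strand), a zinc-finger transcription factor of T cells and neurons that joins BAF, had 177, 251 and 180 CPM in iLuc, 105, 126 and 163 in WT-EF, 39.3, 69.2 and 64.5 in DAF, 23.7, 42.4 and 38.7 in Δ22, and 18.6, 20.7 and 15 in iEF. No library of a condition with EWS/FLI or a mutant overlapped with iEF, and the order of the means was iLuc, WT-EF, DAF, Δ22 and iEF. BCL11B was 11-fold higher with endo-EF (log2 fold change 3.46, SE 0.19, adjusted p = 5.75e-09), 7.15-fold with WT-EF (2.84, SE 0.19, adjusted p = 1.44e-07) and 3.09-fold with DAF (1.63, SE 0.18, adjusted p = 8.30e-05). With Δ22 it was 1.87-fold higher (0.90, SE 0.18, adjusted p = 0.0240), a call lost without the replicate block (adjusted p = 0.105) and without replicate 2 of all conditions (adjusted p = 0.409). It was also lost without iEF replicate 2 (adjusted p = 0.0929) or 3 (0.122), or without Δ22 replicate 2 (0.152) or 3 (0.119). Between constructs, WT-EF exceeded DAF by 1.21 (SE 0.18, adjusted p = 0.000142), whereas DAF exceeded Δ22 by 0.72 (95% interval 0.35 to 1.10, adjusted p = 0.0638). DAF lay above Δ22 within each of the 3 replicate sets, although the libraries overlapped across sets, and 7 of 26 alternatives called the difference. WT-EF stayed below iLuc by 0.62 (SE 0.17, adjusted p = 0.0212; 0.0909 without the block), a call lost without replicate 1 or 2 of either group (adjusted p 0.0960 to 0.131).

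BCL11A, the related factor, was near the limit of counting. It had 20, 72 and 27 counts in iLuc, 10, 20 and 17 in WT-EF, 3, 11 and 9 in DAF, 4, 19 and 5 in Δ22 and 6, 4 and 10 in iEF. The 3 iLuc libraries lay above all of iEF, with 1 iLuc library far above the other 2. The log2 fold change over iEF was 2.38 for iLuc (SE 0.42, adjusted p = 0.000334) and 1.02 for WT-EF (SE 0.46, adjusted p = 0.116). At 1.15 ± 0.763 CPM in iLuc, it stayed far below BCL11B.

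The ARID1 paralogs, DNA-binding subunits of which a BAF complex holds a single copy, changed in opposite directions with endo-EF. ARID1A had 44.6, 40.9 and 42.5 CPM in iLuc, 50.9, 36.8 and 50.6 in WT-EF and 34.0, 26.3 and 32.3 in iEF. It rose by 0.47 on the log2 scale in iLuc (SE 0.10, adjusted p = 0.00104) and by 0.57 in WT-EF (SE 0.10, adjusted p = 0.000364). ARID1B fell by 0.31 in iLuc (47.4 ± 0.788 against 58.9 ± 3.63 CPM, adjusted p = 0.0104), a call lost with library totals alone (adjusted p = 0.348), and was 0.09 above iEF in WT-EF. The log2 ratio of ARID1B to ARID1A was 0.94 ± 0.11 in iEF, 0.15 ± 0.05 in iLuc and 0.46 ± 0.28 in WT-EF, without overlap with iEF, while Δ22 (0.88 ± 0.04) and DAF (0.83 ± 0.08) overlapped with it.

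SS18, the subunit fused to SSX in synovial sarcoma, had 210, 204 and 207 CPM in iEF, 139, 136 and 139 in iLuc and 169, 180 and 142 in WT-EF. All iLuc and WT-EF libraries were below iEF. It fell by 0.59 on the log2 scale in iLuc (SE 0.08, adjusted p = 3.16e-05) and by 0.34 in WT-EF (SE 0.08, adjusted p = 0.00455; 0.223 with library totals alone). Without replicate 3 of all conditions the WT-EF decrease was 0.19 (adjusted p = 0.156), and without replicate 1 it was 0.36 (adjusted p = 0.0651). Its paralog SS18L1 (CREST), known from neurons, rose by 0.41 in WT-EF (38.6 ± 5.15 against 29.1 ± 2.20 CPM, SE 0.10, adjusted p = 0.00737). In iLuc the change was 0.17 (adjusted p = 0.204). The log2 ratio of SS18L1 to SS18 was −2.84 ± 0.13 in iEF, −2.58 ± 0.15 in Δ22, −2.60 ± 0.15 in DAF, −2.08 ± 0.16 in iLuc and −2.09 ± 0.29 in WT-EF. Every library of the 4 other conditions lay above every iEF library in this ratio (exact permutation p = 0.1 for each). For Δ22 and DAF the gap was narrow, with the lowest library of each at −2.75 and the highest iEF library at −2.76. The lowest libraries of iLuc and WT-EF were at −2.23 and −2.37.

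The DPF paralogs are PHD-finger subunits that read histone acylation, with DPF2 the common form and DPF1 and DPF3 known from neurons and muscle. DPF2 was lower with endo-EF and higher with WT-EF, each against iEF. It had 62.6, 56.5 and 58.1 CPM in iLuc, 89.7, 69.8 and 66.6 in iEF, 105, 85.5 and 87.9 in WT-EF, 92.3, 76.6 and 84.2 in Δ22 and 95, 83.1 and 75.2 in DAF. The iLuc libraries lay below all 12 others, and WT-EF overlapped with iEF. The log2 fold change over iEF was −0.34 for iLuc (SE 0.08, adjusted p = 0.00317; 0.221 with library totals alone) and 0.30 for WT-EF (SE 0.08, adjusted p = 0.0105; 0.0950 without the replicate block and 0.0779 without iEF replicate 3). Tested directly, WT-EF exceeded iLuc by 0.65 (SE 0.08, adjusted p = 9.48e-05), and that call held in all 26 alternatives.

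DPF1, close to the run of 10 GGAA units printed above, had 7.85, 4.79 and 7.50 CPM in iEF, 3.73, 4.43 and 4.18 in iLuc, 3.07, 2.46 and 2.82 in WT-EF, 4.81, 4.75 and 4.06 in DAF and 5.86, 5.81 and 4.43 in Δ22. It fell 2.41-fold with WT-EF (log2 fold change −1.27, SE 0.20, adjusted p = 0.000173) and 1.62-fold with endo-EF (−0.70, SE 0.19, adjusted p = 0.00892; 0.0602 with library totals alone, 0.0614 without iLuc replicate 1 and 0.0535 without iEF replicate 3). WT-EF was also below DAF by 0.71 (SE 0.20, adjusted p = 0.0139), a call lost without WT-EF replicate 2 (adjusted p = 0.0640) or DAF replicate 2 (adjusted p = 0.0723). DPF3, with the run of 20 units inside it, gave 0.50 for iLuc over iEF (adjusted p = 0.0654) and −0.25 for WT-EF over iEF (adjusted p = 0.410), and WT-EF was lower than iLuc by 0.75 (SE 0.21, adjusted p = 0.0185; 0.117 without iLuc replicate 2, 0.0522 without WT-EF replicate 1 and 0.0753 without WT-EF replicate 3). The log2 ratio of DPF1 to DPF2 was −5.05 ± 0.08 in WT-EF, below all other conditions, which ranged from −4.21 ± 0.09 in DAF to −3.51 ± 0.36 in iEF.

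**Figure D4:**
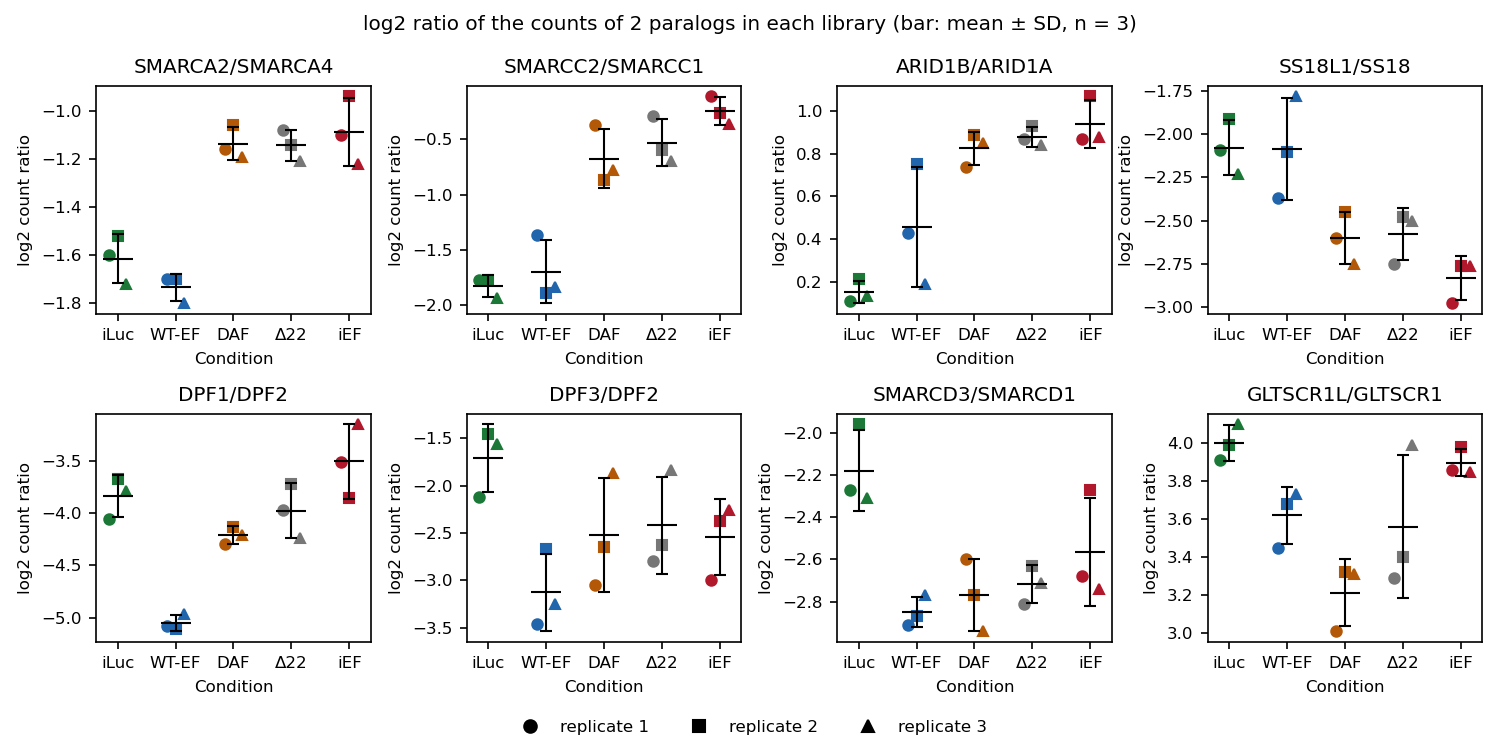
Log2 ratio of the counts of 2 paralogs in each library for 8 pairs, with the mean ± SD of each condition (n = 3); a ratio within a library does not depend on scaling. In the SMARCA2/SMARCA4 and SMARCC2/SMARCC1 panels, iLuc and WT-EF lie below the other 3 conditions, and in the DPF1/DPF2 panel WT-EF lies alone at about −5.05.

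Of the PBAF subunits, 3 of 4 were called higher with endo-EF and none lower, where 64.4% of genes averaging 100 or more counts were called in either direction. ARID2, the DNA-binding subunit that defines PBAF, had 126, 130 and 129 CPM in iLuc, 108, 104 and 132 in WT-EF, and 80.1, 81.6 and 76.7 in iEF. Δ22 (75.0, 79.0 and 80.6) and DAF (77.4, 82.7 and 77.5) sat on the iEF level. The increase over iEF was 0.69 for iLuc (SE 0.09, adjusted p = 1.30e-05) and 0.53 for WT-EF (SE 0.09, adjusted p = 0.000304). For DAF the log2 fold change was −0.00 (95% interval −0.19 to 0.18), and WT-EF exceeded DAF by 0.53 (SE 0.09, adjusted p = 0.000351). BRD7, the PBAF bromodomain protein, rose by 0.45 in iLuc (191 ± 7.34 against 140 ± 5.36 CPM, adjusted p = 0.000123) and was 0.17 above iEF in WT-EF (adjusted p = 0.0837). Exons of ADCY7 and another gene on the opposite strand overlap 41.9% of its exon length. PBRM1, a subunit with several bromodomains, was called in no comparison, at 119 ± 3.05 CPM in iLuc and 103 ± 7.86 in iEF.

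PHF10, a PHD-finger subunit of PBAF, was called in opposite directions with endo-EF and WT-EF. It had 46.5, 47.5 and 42.6 CPM in iLuc, 33.4, 33.5 and 34.5 in iEF, 29.3, 27.0 and 31.9 in Δ22, 25.9, 27.7 and 27.8 in WT-EF and 22.8, 20 and 23.4 in DAF. The iLuc libraries lay above and the 3 rescued conditions below iEF, with no overlap. PHF10 rose by 0.43 with endo-EF (SE 0.09, adjusted p = 0.00152) and fell by 0.62 with DAF (SE 0.09, adjusted p = 0.000728). With WT-EF it fell by 0.32 (SE 0.09, adjusted p = 0.0182), but not with library totals alone (log2 fold change −0.09, adjusted p = 0.525) and not without WT-EF replicate 1 (adjusted p = 0.0923) or 3 (0.0528) or iEF replicate 1 (0.0512) or 2 (0.0741). WT-EF was below iLuc by 0.75 (SE 0.09, adjusted p = 8.51e-05), and the decreases from iLuc to WT-EF and from iEF to DAF held in all 26 alternatives. DAF was also below Δ22 by 0.42 (SE 0.09, adjusted p = 0.0442), a call that 7 of 26 alternatives made. Genes on the opposite strand overlap 10.5% of its exon length.

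The 3 members listed under ncBAF alone did not pass the test in any comparison. This does not cover subunits that ncBAF shares with the other assemblies, such as SS18. BRD9, the bromodomain subunit that marks ncBAF, had 58.0 ± 2.79 CPM in iLuc, 60.2 ± 2.77 in iEF, 59.9 ± 4.53 in WT-EF, 62.1 ± 4.36 in Δ22 and 55.3 ± 2.51 in DAF. For iLuc over iEF the 95% interval of its log2 fold change was −0.21 to 0.10. GLTSCR1L was at 12.9 ± 0.550 CPM in iLuc and 13.9 ± 0.607 in iEF. GLTSCR1 had between 23 and 48 counts in each library, which limits what could be detected for it. The log2 ratio of GLTSCR1L to GLTSCR1 was 3.90 ± 0.07 in iEF, 3.62 ± 0.15 in WT-EF and 3.21 ± 0.18 in DAF. Neither WT-EF nor DAF overlapped with iEF in this ratio, which rests on the low GLTSCR1 counts.

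Few subunits were called with the mutants, at shares near those of other well expressed genes. With Δ22 against iEF, 1 member of 30 was higher and none lower, where 0.472% of all tested genes were higher and 0.830% lower. That member was BCL11B, and the count was the same with library totals alone. Among genes averaging 100 or more counts, 2.79% were called with Δ22, beside 1 of 28 members, and 21.2% with DAF, beside 5 of 28. With DAF against iEF, 1 was higher (BCL11B) and 4 lower (SMARCD3, ACTL6A, BCL7C and PHF10), where 5.00% of all genes were higher and 6.19% lower. Of these 5, BCL11B and PHF10 were called in all 26 alternatives. With library totals alone, 2 were higher and 2 lower, and the total of 5 became 11 with DESeq2, 10 with filterByExpr and 2 to 7 when a replicate or library was left out. The direct test of WT-EF against DAF called 11 members higher and 3 lower (12.4% and 16.1% of all genes), or 18 and 1 with library totals alone. The median log2 fold change of the members was 0.17 there and −0.01 over all genes. Among genes averaging 100 or more counts, 52.2% passed, beside 14 of 28 members. The 7 members called in all 26 alternatives were SMARCC1, SMARCD1, ACTL6A, BCL7A, BCL11B, ARID2 and BRD7, all higher with WT-EF. FLI1 reads, by contrast, were lower in WT-EF than in DAF (log2 fold change −0.47, SE 0.10, adjusted p = 0.00264), and the part of construct level in these differences was not tested. DAF against Δ22 called no member higher and 1 lower, PHF10 (0.948% and 0.379% of all genes), and none in either direction with library totals alone.

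Some subunits differed between WT-EF and iLuc. FLI1 reads were also lower in WT-EF than in iLuc (log2 fold change −1.49, SE 0.10, adjusted p = 6.21e-07). Because cDNA and endogenous transcripts may be counted unlike, this value is not a measure of the difference in EWS/FLI level. Of the members, 3 members were higher (ARID1B, DPF2 and SS18) and 8 lower (SMARCA2, SMARCD3, BCL7A, DPF3, BCL11A, BCL11B, BRD7 and PHF10), where 10.7% of all genes were higher and 9.03% lower. With library totals alone the split was 4 higher and 6 lower. The largest differences were those of BCL11A (log2 fold change −1.37, SE 0.38, adjusted p = 0.0197; 0.181 without iLuc replicate 2 and 0.124 without WT-EF replicate 2), DPF3 and PHF10. DPF2 and PHF10 alone kept their calls in all 26 alternatives. Leaving out replicate 1, or replicate 2, of all conditions left 2 members called.

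Other remodellers were counted from lists of their subunits. With endo-EF, 7 of 11 ISWI-type genes were higher and 1 lower, 8 of 16 NuRD and LSD1 genes higher and 3 lower, 8 of 22 INO80, SRCAP and TIP60-p400 genes higher and 4 lower, and 8 of 16 other CHD and SNF2 genes higher and 3 lower. The acetyltransferases EP300 and CREBBP were not called. Over all tested genes the shares were 19.5% higher and 22.1% lower, and 64.4% of genes averaging 100 or more counts were called. These lists were not recounted with library totals alone. The median log2 fold changes of these first 4 lists were 0.42, 0.15, 0.14 and 0.25, against 0.02 for the BAF members and 0.04 for all genes. The genes past 2-fold included CHD3, an ATPase of NuRD (459 ± 6.58 CPM in iLuc against 146 ± 19.5 in iEF, log2 fold change 1.66, SE 0.12, adjusted p = 6.33e-08), and INO80C (2.66 ± 0.129 against 14.4 ± 2.89 CPM, log2 fold change −2.44, SE 0.26, adjusted p = 2.98e-06). The others past 2-fold were CECR2 and RCOR1, which rose, and CHD5 and ERCC6, which fell. In WT-EF against DAF, 14 of 30 BAF members were called, against 0 of 11 ISWI-type genes, 7 of 16 NuRD and LSD1 genes, 13 of 22 INO80, SRCAP and TIP60-p400 genes and 9 of 16 other CHD and SNF2 genes, where 52.2% of genes averaging 100 or more counts were called. The differences between these lists were not tested.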

How the data were processed

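RNA-seq of 15 A673 libraries was analysed, with groups and replicate numbers from the sample labels. Read pairs were mapped by the authors with STAR (2.5.1b in the submitters' processing notes) against hg19 and assigned to genes with htseq-count (intersection-strict). The deposited counts are whole numbers without normalization. A second deposited table holds counts after ComBat adjustment by the authors, not whole and not scaled for depth, and served in 1 alternative. A table of the authors' own comparisons (fold changes and p-values) was not used, nor were 3 columns of other samples.

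Genes with a mean count of 1 or more were tested in R 4.3.3 with edgeR 4.0.16 (TMM, quasi-likelihood F test, 1 model of condition and replicate number for all 15 libraries), with Benjamini-Hochberg adjustment over all tested genes in each of 7 comparisons and a cutoff of 0.05. The block follows the batch adjustment of each set of replicates in the study's methods. Deviations from the condition means correlated with a median r of 0.181 over 30 pairs with the same number and −0.0889 over 60 pairs with different numbers. Pairs with the same number ranged from −0.189 to 0.796, and 21 of the 30 were over 0.1. Deviations from a mean cancel out within a condition, so the value for different numbers is not independent of the other. CPM use TMM-scaled library sizes. Paralog ratios use a prior count of 0.5, and 70 of them (10 pairs) were tested by a two-sided exact permutation test, with a smallest Benjamini-Hochberg adjusted p of 0.226. Of the 70, 31 gave the smallest possible exact permutation p of 0.1. On simulated counts for iLuc against iEF (28172 genes), 27 of 100 genes changed by 1.5-fold and 67 of 100 changed by 2-fold were recovered, and 4 unchanged genes were called. Only 200 genes were changed there, far fewer than the 5625 higher and 6368 lower genes called in the data. The adjustment over genes is stricter with so few changes, so these rates do not measure the power of the real test.

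Alternatives were RLE size factors, DESeq2 1.42.0, no filter, filterByExpr, no block, fits of the 6 libraries compared, limma 3.58.1 on the ComBat table, and leaving out each replicate number or library. Library totals without TMM were added after seeing the data. The text names all members and FLI1, and of the other remodeller lists genes past 2-fold in iLuc against iEF. The members and lists were chosen with earlier results of these data known. Coordinates are GRCh37, promoters RefSeq GRCh38.p14. Protein sequences were not used here.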

Additional observations from a re-analysis of the deposited data

How the results depend on the processing

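Of 182 recounts of called members over 26 alternatives and 7 comparisons, 133 stayed within 1.5 times the count given above. For WT-EF against iEF (15 members) the fit of 6 libraries called 9, and leaving out a replicate or library gave 9 to 15. For iLuc against iEF (17) leaving out gave 12 to 18. For Δ22 against iEF (1) the fit with no replicate block called 0, and leaving out gave 0 to 1. For DAF against iEF (5) DESeq2 called 11, filterByExpr 10, and leaving out gave 2 to 7. For WT-EF against iLuc (11) the fit with no replicate block called 5, the fit of 6 libraries 7, and leaving out gave 2 to 12. For WT-EF against DAF (14) leaving out gave 9 to 15. For DAF against Δ22 (1) DESeq2, no filter on low counts and the fit of 6 libraries each called 2, the fit with no replicate block, library totals alone and limma on the ComBat table each 0, and leaving out gave 0 to 2. The cause of these moves was not tested. The paralog ratio ACTL6B to ACTL6A, which rests on 0 to 3 counts, moved from 1.19 to 0.20 in WT-EF against DAF with a prior count of 2.

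No called member changed sign. Calls made in all 26 alternatives were 11 of 17 for iLuc against iEF, 8 of 15 for WT-EF against iEF, 0 of 1 for Δ22 against iEF, 2 of 5 for DAF against iEF, 2 of 11 for WT-EF against iLuc, 7 of 14 for WT-EF against DAF and 0 of 1 for DAF against Δ22. Without the replicate block, the calls of BCL7B and DPF2 in WT-EF against iEF were also lost. Limma on the ComBat table, scaled by library totals, gave 17 higher and 3 lower in iLuc against iEF and 15 and 3 in WT-EF against iEF. Calls lost when a replicate number was left out of all conditions, but not when any single library was, included SS18 (without replicate 1 or 3), SMARCA2 and BCL7B (without replicate 1) and SS18L1 (without replicate 2) in WT-EF against iEF, and ARID1B (without replicate 1 or 2), DPF2 and PHF10 (without replicate 1) in iLuc against iEF, with adjusted p of 0.0516 to 0.156 in those fits (edgeR).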
